A study of Mus musculus with 18 samples.

Results

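The transcripts of the mitochondrial genome were followed in 18 libraries of mouse bone marrow progenitors. Members were all rows of the count tables whose symbol starts with mt-, a rule that uses the name and no measured value, and they numbered 30 of 29717 rows. They comprised 13 mRNAs, 2 rRNAs and 15 of the 22 annotated tRNAs, and the other 7 tRNA genes (mt-Tn, mt-Ts1, mt-Td, mt-Tk, mt-Tg, mt-Th and mt-Ts2) were not analysed here. Cells came from BALB/c mice and were lineage-negative bone marrow progenitors of 3 labelled populations, HSC, MPP1 and MPP4. In common usage these are haematopoietic stem cells, early multipotent progenitors and lymphoid-primed multipotent progenitors. The mutant libraries numbered 3 in HSC, 2 in MPP1 and 4 in MPP4, with the same numbers of control libraries. The genotype field gives the mutants as dnmt1-/- and the controls as wt, whereas the series description speaks of a missense mutation that leaves Dnmt1, the maintenance DNA methyltransferase, with reduced function. Libraries came from batches A, B and C with both genotypes in equal number in each, and all MPP1 libraries came from batch C. The column names carry 8 ID numbers, 4 per genotype, that recur across populations. Since no label ties these numbers to animals, the p-values rest on the spread among libraries, part of which may be technical.

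The mitochondrial genome is a small circle that encodes subunits of the respiratory chain and of ATP synthase, together with the rRNAs and tRNAs that translate them inside the organelle. Both strands, called heavy and light, are copied as long precursors, tRNAs are cut out from between the other genes, and most mRNAs and both rRNAs then receive a short poly(A) tail. All other proteins of the organelle, including its polymerase and RNA-processing enzymes, come from nuclear genes. Blood stem cells are known for relying largely on glycolysis, and their progeny for more respiration.

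Libraries were made by CEL-Seq2, which primes on poly(A) and tags each captured molecule with a random unique molecular identifier (UMI), so a count stands for a transcript end and was not divided by gene length. Totals ran from 354642 to 1943562 counts per library. The deposited values carry a correction for UMI collisions with a ceiling of 36909. mt-Rnr2 reached it in HSC mutant 2, HSC control 2, MPP1 control 1 and MPP4 control 3, so its value and the share of mitochondrial counts are lower limits in those libraries. Over all genes 7 values were at the ceiling, 4 of them of mt-Rnr2. The satellite-like gene models Gm10800 and Gm10801 were at the ceiling in MPP4 control 4, so the total of that library is a lower limit. Its mitochondrial share and the CPM of its other genes are therefore upper limits. Below the ceiling the correction gave mt-Rnr2 a relative counting error of 2.14% to 5.25% in the other 14 libraries. Markers of erythroid, B or neutrophil cells summed to over 10000 CPM (counts scaled to a library total of 1e+06) in 6 libraries, namely HSC mutant 1 (erythroid, 12050), MPP4 mutant 2 (erythroid, 188800), MPP4 mutant 3 (B cell, 11630), HSC control 1 (B cell, 35700), MPP1 control 2 (erythroid, 31890) and MPP4 control 4 (erythroid, 29620). In the remaining libraries these sums were at most 322 CPM for erythroid, 932 CPM for B cell and 1766 CPM for neutrophil markers. Markers of lymphoid-primed progenitors summed to 1150 to 3734 CPM in MPP4 and 201 to 419 CPM in HSC libraries, and those of the stem cell gate to 551 to 1600 CPM in MPP4 and 994 to 2631 CPM in HSC. A lower share of mitochondrial RNA cannot be told apart from more RNA of other kinds in the same cells, or from another mix of cells. The mutation is described as missense, so the Dnmt1 transcript level checks no label.

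The following sequences, from the GENCODE M21 transcripts (GRCm38), carry the results below. The first pair shows that the 3′ end of mt-Co3, a subunit of cytochrome c oxidase, is identical to that of a nuclear pseudogene, and the second pair shows the same for mt-Atp6, a subunit of ATP synthase.

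mt-Co3: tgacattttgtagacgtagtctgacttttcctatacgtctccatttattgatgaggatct
Gm28437: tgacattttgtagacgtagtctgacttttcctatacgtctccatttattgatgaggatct
mt-Atp6: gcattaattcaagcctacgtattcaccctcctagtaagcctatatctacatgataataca
Gm10925: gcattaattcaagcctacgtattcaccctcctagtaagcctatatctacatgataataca

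These stretches lie at chrM:9330-9389 and chrM:8545-8604 on the plus strand, and at chr1:24613189-24613248 and chr1:24613974-24614033 on the minus strand. The next sequences are the isoleucine and methionine tRNA genes that held most tRNA counts, mt-Ti at chrM:3706-3774 and mt-Tm at chrM:3845-3913. They are followed by the start of mt-Nd2 at chrM:3914-4071, which follows mt-Tm directly and whose longest run of A is in capitals. All 3 are on the plus strand.

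mt-Ti: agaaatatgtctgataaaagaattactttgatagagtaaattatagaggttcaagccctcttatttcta
mt-Tm: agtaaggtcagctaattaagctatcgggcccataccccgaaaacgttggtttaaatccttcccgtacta
mt-Nd2 start: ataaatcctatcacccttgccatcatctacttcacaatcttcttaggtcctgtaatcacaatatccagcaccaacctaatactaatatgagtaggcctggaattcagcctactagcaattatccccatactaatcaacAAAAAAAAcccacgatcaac

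The run of 8 A begins 138 bases after the end of mt-Tm and was the only run of that length or longer among the 15 mRNA and rRNA genes. Whether priming at this run gave any count was not tested.

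Over all 18 libraries the 30 rows summed to 916020 counts, of which rRNA made up 62.2%, mRNA 37.4% and tRNA 0.386%. The large ribosomal RNA mt-Rnr2 alone held 46.3%. Of the 13 mRNAs, 7 held 342450 counts together and the other 6 held 431. Cytochrome b (mt-Cytb, the mitochondrial subunit of complex III) took a median of 24.2% of the mitochondrial mRNA counts, with a range over libraries of 17.3% to 28.0%. Among the subunits of complex I, the NADH dehydrogenase, mt-Nd4 had a median of 22.3%, mt-Nd1 15.3%, mt-Nd2 13.9% and mt-Nd5 12.9%. The cytochrome c oxidase subunit mt-Co1 had a median of 7.70%, and mt-Nd6, the only mRNA of the light strand, 0.333%. These are shares of counts, not levels per length. The widest spread was that of mt-Nd5, which ran from 8.27% to 28.5%. One tRNA gene, mt-Tl2, had no count in any library, which allows up to 0.195 CPM over the summed libraries.

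**Figure D1:**
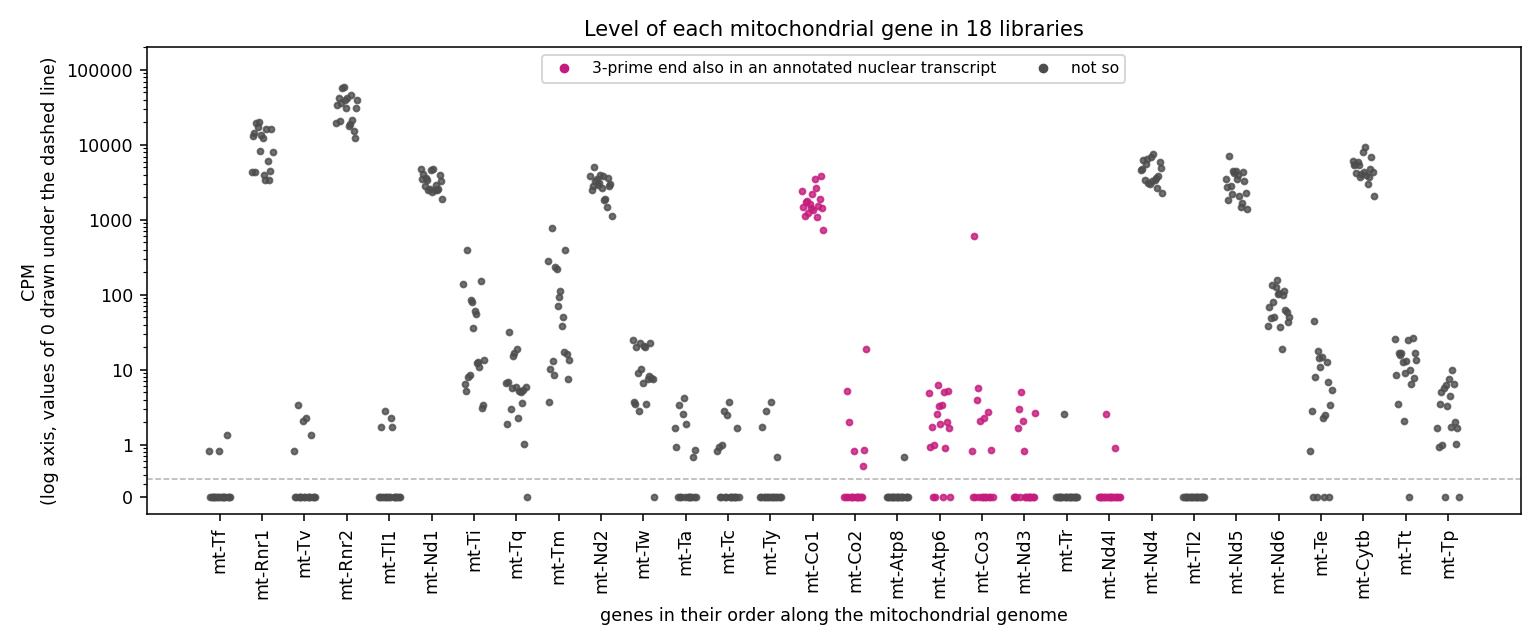
Each dot is 1 of 18 libraries, with the CPM of 30 mitochondrial genes on a log axis and the genes in their order along the genome. Genes in pink have over 90% of the 50-base words of their last 300 bases in an annotated nuclear transcript; mt-Co1 is pink with a median of 7.70% of mitochondrial mRNA counts, whereas mt-Co2, mt-Atp6, mt-Co3, mt-Nd3 and mt-Nd4l held few counts, as did mt-Atp8, which is not pink.

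The 6 mRNAs with few counts were neighbours on the genome. Their totals over 18 libraries were 15 counts for mt-Co2 and 365 for mt-Co3 (cytochrome c oxidase), 1 for mt-Atp8 and 39 for mt-Atp6 (ATP synthase), and 9 for mt-Nd3 and 2 for mt-Nd4l (complex I). A block of 7 annotated pseudogenes on chr1:24611535-24616197 holds copies of this stretch, and none of the 7 is a row of the tables. The copies matched 681 of 681 aligned bases of mt-Co2, 678 of 678 of mt-Atp6, 783 of 783 of mt-Co3, 342 of 342 of mt-Nd3 and 294 of 294 of mt-Nd4l. For mt-Nd4 the copy covers the first 876 of 1378 bases and stops 502 bases before the 3′ end, which is where CEL-Seq2 reads lie. For mt-Co1 the copy covers the last 483 bases with 1 mismatch, A1066T, counted from the first base of the gene. Reads from shared stretches cannot be assigned to 1 place, and their treatment in the authors' counting is not given in the sources used here. Few counts and an end shared with an annotated nuclear transcript did not always go together. mt-Co1 had 32324 counts although 100% of the 50-base words of its last 300 bases occur in nuclear transcripts. mt-Atp8 had 1 count with 0%, but only annotated transcripts were searched, not a genome. It lies at chrM:7766-7969, between the copied mt-Co2 and mt-Atp6, and its end overlaps mt-Atp6 (from chrM:7927). No pseudogene of it is annotated in the block, so the 0% does not show that it lacks a copy. The part of the copies in the low counts was not tested, and the levels of these 6 mRNAs were not read further.

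One library departed from this. HSC mutant 3 had 351 counts of mt-Co3, or 608 CPM, which is 351 of the 431 counts of the 6 genes. The MPP1 and MPP4 libraries of the same ID number had 0 counts of mt-Co3, and the highest count of any of the 6 genes elsewhere was 10. The expression filter left mt-Co3 out of the HSC test.

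The share of mitochondrial RNA overlapped between the genotypes in every population when taken from the deposited counts. In HSC the mutant libraries had 4.97%, 6.81% and 7.96% of their counts from mitochondrial genes, against 5.11%, 7.93% and 9.69% in the control libraries. The groups overlapped, with means of 6.58% ± 1.51 in mutants and 7.57% ± 2.31 in controls (SD, n = 3 each), and a two-sided exact permutation test gave p = 0.5, where 0.1 is the smallest value that 3 against 3 allows. By the deposited values the mutant library was lower in each of the 3 pairs of the same replicate number, for the total as for rRNA. The exact sign-flip permutation test over these pairs gave p = 0.25, the smallest that 3 pairs allow. In the pair of replicate 2 both libraries were at the ceiling of mt-Rnr2, so the order of that pair is not known. Replicate numbers match the same ID numbers otherwise in MPP1 and MPP4. By the matching used there, HSC mutant 3 (7.96%) stands beside HSC control 2, whose 7.93% is a lower limit, so their order is not known. The same holds for rRNA (5.71% and at least 5.62%). The difference of the genotype means, -0.996 points, became 0.0614 points without HSC control 3 and -2.23 points without HSC control 1. In MPP1 the shares were 9.80% and 6.65% in mutants, against 7.51% and 7.29% in controls, with an exact p of 1.0 and a smallest possible value of 0.333. Here the mutant mean was 0.828 points higher, an upper limit since only MPP1 control 1 was at the ceiling of mt-Rnr2, but mitochondrial mRNA alone was 0.548 points lower, the opposite direction, and without MPP1 mutant 1 the total was 0.742 points lower. In MPP4 the shares were 5.51%, 3.86%, 7.72% and 4.11% in mutants and 4.04%, 4.40%, 6.71% and 5.69% in controls. Those groups differed by 0.0889 points with an exact p of 0.971 (smallest possible 0.0286). The share of MPP4 control 3 is a lower limit and that of MPP4 control 4 an upper limit, so this difference is not bounded on either side. The mean difference turned negative under several settings, among them batch C alone at -0.284 points. Distinct UMIs, that is the deposited counts without the collision correction, gave other values. Their number per gene is limited, so the share of a gene near the limit, such as mt-Rnr2, falls with depth. In MPP1 the groups did not overlap by distinct UMIs. Means were 3.79% ± 0.520 in mutants and 2.89% ± 0.480 in controls (SD, n = 2 each). The exact permutation p was 0.333, the smallest possible. Both MPP1 mutant libraries were shallower (393504 and 481891 counts) than both MPP1 control libraries (1202624 and 534476 counts). This depth difference pushes toward a higher share in mutants, so the separation cannot be ascribed to genotype. The differences by distinct UMIs were -0.697 points in HSC (exact permutation p = 0.3) and 0.444 points in MPP4 (exact permutation p = 0.429). Wilson 95% intervals of single libraries were at most 0.0974 points to either side and cover counting error only.

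**Figure D2:**
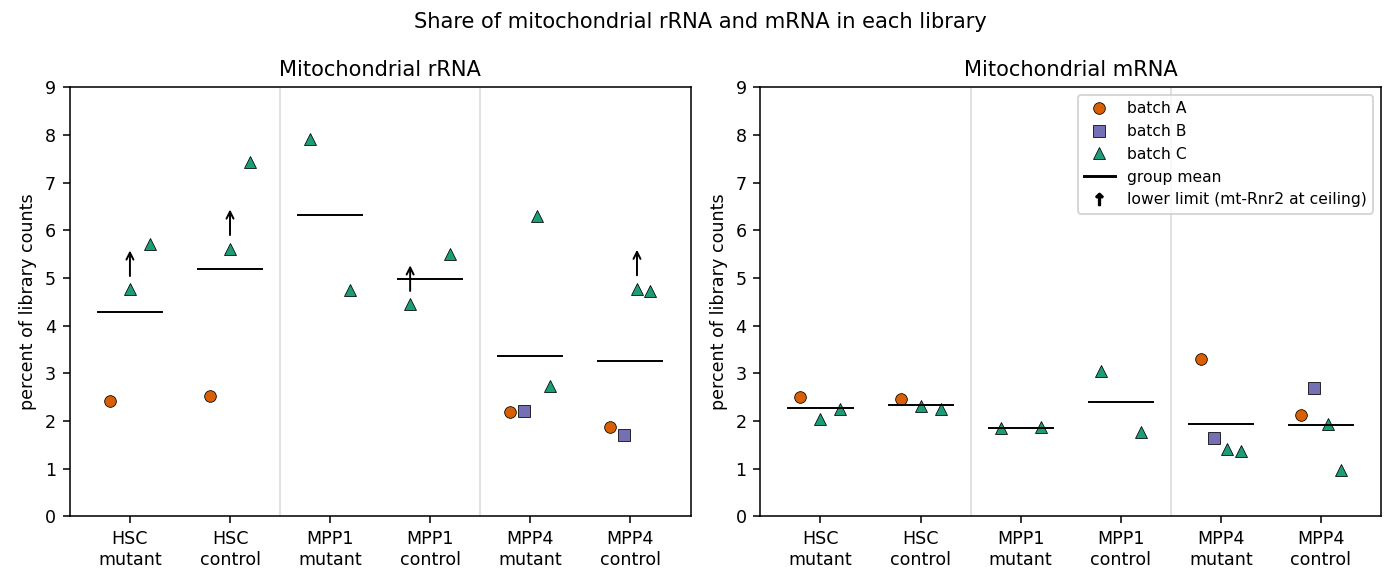
Percent of library counts from mitochondrial rRNA (left) and mRNA (right) per library, with group means as bars, batches by symbol, and arrows where mt-Rnr2 was at its ceiling. Batch A and B libraries lie at 1.70% to 2.52% rRNA, under all batch C libraries, and the 6 HSC libraries lie within 2.05% to 2.51% mRNA.

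The rRNA and mRNA parts behaved differently across libraries. In HSC the mRNA share was 2.51%, 2.05% and 2.25% in mutants, against 2.46%, 2.30% and 2.24% in controls. The rRNA share of the same libraries was 2.41%, 4.76% and 5.71% in mutants, against 2.52%, 5.62% and 7.44% in controls. The mRNA values stayed close together while the rRNA values spread with the batch. In MPP1 the mRNA share was 1.85% and 1.87% in mutants, against 3.05% and 1.77% in controls. The rRNA share was 7.91% and 4.75% in MPP1 mutants and 4.45% and 5.50% in MPP1 controls. Neither class separated the genotypes there. In MPP4 the mRNA share was 3.30%, 1.64%, 1.41% and 1.38% in mutants, against 2.12%, 2.70%, 1.93% and 0.961% in controls. The rRNA share was 2.19%, 2.22%, 6.30% and 2.73% in MPP4 mutants and 1.87%, 1.70%, 4.77% and 4.73% in MPP4 controls. Both classes overlapped between the genotypes, with mean differences of 0.00448 points for mRNA (exact permutation p = 1.0) and 0.0919 points for rRNA (exact permutation p = 0.943, n = 4 each).

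Batch moved with the balance of the classes. The ratio of mitochondrial mRNA to rRNA was 0.977 to 1.51 in the 4 libraries of batch A, 0.740 to 1.59 in the 2 of batch B, and 0.203 to 0.685 in the 12 of batch C. Batch C did not overlap with the other batches. Every batch held both genotypes in equal number, so this split does not fall along the genotype, but batches and populations overlap only in part.

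Single genes were tested with edgeR's quasi-likelihood test within each population. In HSC none of the 11 members that passed the low-count filter was called, against 0.241% of all genes tested, with 2 members at an unadjusted p under 0.05 and 0 calls by DESeq2. The light-strand mRNA mt-Nd6 had 38.0, 68.4 and 48.5 CPM in HSC mutants, against 137, 79.7 and 50.8 CPM in HSC controls. Its log2 fold change was -0.73 (SE 0.31, edgeR adjusted p = 0.434), and the groups overlapped. mt-Nd1 had 4728, 3493 and 4074 CPM in HSC mutants, against 2870, 3577 and 3451 CPM in HSC controls. Its log2 fold change of 0.35 (SE 0.25, edgeR adjusted p = 0.662) was the largest of the tested mRNAs, and the groups overlapped. The small ribosomal RNA mt-Rnr1 had 4379, 13010 and 14420 CPM in HSC mutants, against 4351, 19420 and 17250 CPM in HSC controls. mt-Rnr2 had 19720, at least 34570 and 42650 CPM in HSC mutants, against 20840, at least 36750 and 57180 CPM in HSC controls, and both rRNAs were lowest in the batch A library of each genotype. The fitted log2 fold changes were -0.24 (SE 0.24) for mt-Rnr1 and -0.18 (SE 0.24) for mt-Rnr2. For the other mRNAs they lay between -0.39 for mt-Nd5 and 0.18 for mt-Cytb, with mt-Nd2 at -0.35, mt-Co1 at 0.07 and mt-Nd4 at 0.09. The median over the 11 tested members was -0.24, beside 0.01 over all genes tested, and 7 of the 11 were below 0. With distinct UMIs, which depend on depth as said above, the median was -0.40 and 10 of the 11 were below 0.

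In MPP1 the methionine tRNA gene mt-Tm rose in mutants, the only call among 12 tested members, where 0.225% of all genes were called. Its values stand with the tRNAs below. Among the mRNAs, mt-Nd6 had 127.1 and 158 CPM in MPP1 mutants, against 101 and 107 CPM in MPP1 controls. The groups did not overlap, but the log2 fold change of 0.60 (SE 0.27) was not called (edgeR adjusted p = 0.994). mt-Nd4 had 3103 and 2994 CPM in MPP1 mutants, against 6971 and 3257 CPM in MPP1 controls, with a log2 fold change of -0.58 (SE 0.36, edgeR adjusted p = 0.999). Without MPP1 control 2, a library with erythroid transcripts, mt-Nd4 was called lower (log2 -0.98, edgeR adjusted p = 0.0474), in a comparison that rests on 1 control library. mt-Rnr1 had 19980 and 8365 CPM in MPP1 mutants and 13760 and 12480 CPM in MPP1 controls. mt-Rnr2 had 59110 and 39140 CPM in MPP1 mutants, against at least 30690 and 42500 CPM in MPP1 controls. The rRNA groups overlapped, with log2 fold changes of 0.27 (SE 0.40) for mt-Rnr1 and 0.56 (SE 0.39), an upper limit, for mt-Rnr2. The remaining mRNAs had log2 fold changes from -0.50 (mt-Cytb) to 0.26 (mt-Nd5), with mt-Nd1 at -0.31, mt-Co1 at -0.06 and mt-Nd2 at 0.01. The median over the 12 tested members was 0.26 with 8 above 0, beside -0.00 over all genes. It was 0.54 with all 12 above 0 with distinct UMIs, which depend on depth as said above. The median was 0.03 without MPP1 mutant 1 and 0.47 without MPP1 mutant 2.

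In MPP4 no member of 12 tested was called, against 0.0852% of all genes, with 0 members at an unadjusted p under 0.05 in edgeR and 0 calls by DESeq2. The largest fold change among the mRNAs was that of mt-Co1, which had 3535, 2642, 1091 and 1554 CPM in MPP4 mutants, against 1921, 3892, 1438 and 722 CPM in MPP4 controls. Its log2 value was 0.32 (SE 0.28, edgeR adjusted p = 0.901). The smallest was that of mt-Nd5, with 3974, 2072, 1505 and 1701 CPM in MPP4 mutants, against 4305, 3272, 2312 and 1417 CPM in MPP4 controls (log2 -0.22, SE 0.25, edgeR adjusted p = 0.924). Both pairs of groups overlapped. mt-Rnr1 had 3948, 3396, 16200 and 6033 CPM in MPP4 mutants, against 3389, 4527, 16510 and 7929 CPM in MPP4 controls. mt-Rnr2 had 17940, 18770, 46800 and 21250 CPM in MPP4 mutants, against 15270, 12480, at least 31230 and 39320 CPM in MPP4 controls. Their log2 fold changes were 0.01 (SE 0.32) for mt-Rnr1 and 0.21 (SE 0.40), an upper limit, for mt-Rnr2. The other mRNAs lay at 0.16 for mt-Nd1, 0.16 for mt-Cytb, 0.10 for mt-Nd6, 0.05 for mt-Nd4 and -0.14 for mt-Nd2, and the median over members was 0.09, beside -0.00 over all genes. That median did not keep its sign or size: it was 0.40 with distinct UMIs, -0.26 in batch C alone, -0.04 without batch in the fit and -0.02 without libraries high in other cell types' markers. It was -0.17 without MPP4 control 1, -0.17 without MPP4 mutant 1, -0.07 without MPP4 control 2, -0.06 without MPP4 mutant 2, 0.04 without MPP4 mutant 3 and 0.24 without MPP4 mutant 4.

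**Figure D3:**
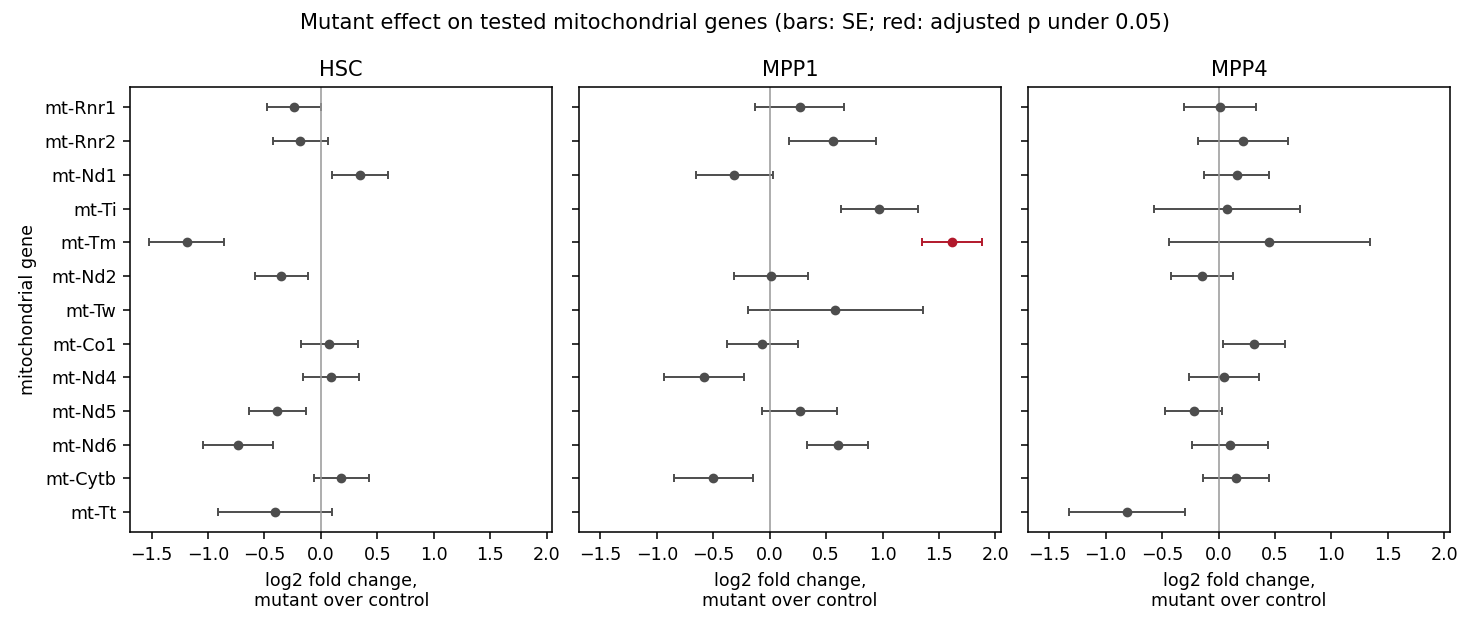
Log2 fold change of mutant over control with its SE for the mitochondrial genes tested in HSC (11), MPP1 (12) and MPP4 (12), in genome order from the top. Only mt-Tm in MPP1 (log2 1.62) is in red, for an edgeR adjusted p under 0.05; most other bars span 0.

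The 15 tRNA rows held 3532 counts, and mt-Tm with 1961 and mt-Ti with 887 made up 80.6% of them. The next were the threonine tRNA gene mt-Tt with 210, the tryptophan tRNA gene mt-Tw with 180 and the glutamic acid tRNA gene mt-Te with 107 counts. In MPP1, mt-Tm had 234 and 218 CPM in mutants, against 71.5 and 93.6 CPM in controls. The groups did not overlap, and the log2 fold change was 1.62 (SE 0.27, edgeR adjusted p = 0.00219). The call held under every alternative setting, where adjusted p ran from 1.02e-06 to 0.04996 (DESeq2) and the log2 fold change from 1.32 to 1.87. Of these settings, those that leave out a library compare 2 libraries with 1, whose spread is assumed to be that of the other pair, and leaving out MPP1 control 2 and leaving out libraries high in other cell types' markers are the same fit. In the authors' deposited table the log2 fold change of mt-Tm in MPP1 was 1.15 with an adjusted p of 0.319. mt-Ti had 86.4 and 80.9 CPM in MPP1 mutants, against 36.6 and 61.7 CPM in MPP1 controls, and its log2 fold change of 0.97 (SE 0.34) was not called (edgeR adjusted p = 0.768). mt-Tw had 0.58 (SE 0.77).

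Other transcripts also separated the MPP1 genotypes, but groups of 2 libraries separate easily. The smallest p that an exact permutation test of 2 against 2 allows is 0.333. The satellite-like gene models Gm10800 and Gm10801 made up 5.41% and 6.59% of counts in MPP1 mutants, against 2.35% and 1.20% in MPP1 controls. In MPP4 controls they ran from 0.0494% to at least 19.7%, the latter in MPP4 control 4, where both were at the ceiling. A list of 5 RNAs retained in the nucleus summed to 8803 to 9169 CPM in MPP1 mutants and 5564 to 7085 CPM in MPP1 controls. Neutrophil markers summed to 602 to 992 CPM in MPP1 mutants and 1766 to 8229 CPM in MPP1 controls, with Retnlg at 0 in both mutant libraries. Macrophage markers summed to 99.1 to 158 CPM in MPP1 mutants and 217 to 520 CPM in MPP1 controls, with Adgre1 and C1qa at 0 in both mutant libraries. Sums also separated for B cell markers (39.4 to 66.1 CPM in MPP1 mutants, 35.6 to 37.4 CPM in MPP1 controls) and lymphoid-primed markers (336 to 404 and 462 to 464 CPM). So did the nuclear genes listed below for mitochondrial DNA and RNA (1631 to 1793 and 1878 to 2134 CPM). Those of erythroid, T cell and stem cell gate markers overlapped. The part of any of these in the mt-Tm result was not tested.

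In the other populations both tRNA genes were highest in the libraries of batch A. In HSC, mt-Tm had 285, 3.75 and 10.4 CPM in mutants, against 780, 12.9 and 8.46 CPM in controls. mt-Ti had 139, 6.56 and 5.19 CPM in HSC mutants, against 393, 7.97 and 8.46 CPM in HSC controls. The first value of each group is the batch A library, far above the batch C libraries of the same genotype. With batch in the fit, mt-Tm had a log2 fold change of -1.19 (SE 0.33) in HSC and was not called (edgeR adjusted p = 0.205), but it was called lower without HSC mutant 3 (log2 -1.38, edgeR adjusted p = 0.0487). In MPP4, mt-Tm had 110.8, 38.1, 50.2 and 17.4 CPM in mutants, against 397, 16.5, 7.62 and 13.4 CPM in controls. Its log2 fold change was 0.45 (SE 0.89, edgeR adjusted p = 0.957). mt-Ti had 54.9, 12.1, 12.5 and 10.96 CPM in MPP4 mutants, against 153, 3.09, 3.38 and 13.4 CPM in MPP4 controls (log2 0.07, SE 0.65). The batch A library was again the highest of each group, and the genotypes overlapped. mt-Ti did not pass the filter in HSC. mt-Tt had a log2 fold change of -0.41 (SE 0.51) in HSC and -0.81 (SE 0.52) in MPP4, neither called. It ran from 0 to 26.5 CPM over the 18 libraries, and mt-Tw from 0 to 24.8 CPM. mt-Te had 0.826, 2.81 and 0 CPM in HSC mutants, against 45.1, 7.97 and 0 CPM in HSC controls, and was called lower in HSC mutants only when no filter was applied (log2 -3.36, edgeR adjusted p = 0.0112). These genes had few counts in every library.

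**Figure D4:**
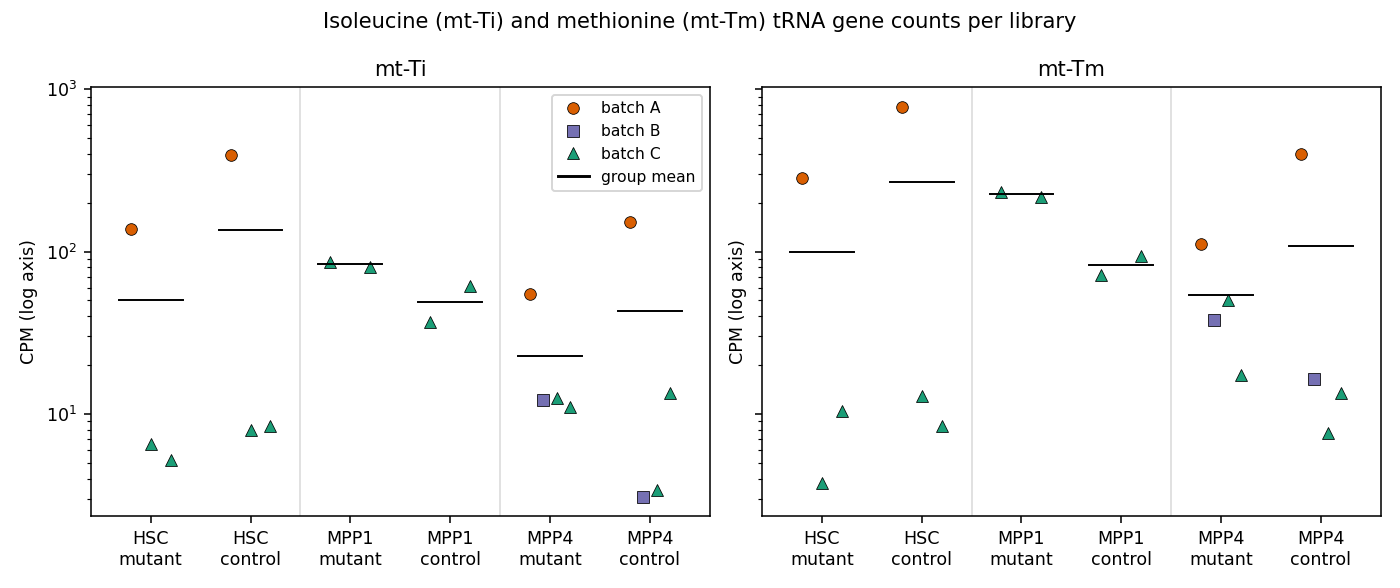
CPM of mt-Ti (left) and mt-Tm (right) per library on a log axis, with group means as bars and batches by symbol. In HSC and MPP4 the batch A libraries lie highest, and in MPP1, all of batch C, mt-Tm lies at 234 and 218 CPM in mutants and at 71.5 and 93.6 CPM in controls.

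Whether the mutant effect itself differed between populations was tested in 1 fit of the 18 libraries, in which ID numbers formed blocks. No member of 15 was called for MPP4 against HSC, where 0.0283% of all genes were called, nor for MPP1 against HSC, where 0% were. Each had 2 members at an unadjusted p under 0.05 in edgeR, and DESeq2 called 1 and 0 members. That DESeq2 call was mt-Co2, an mRNA with few counts that is not among the 15. Without HSC mutant 1 and its ID number, mt-Tm was called for MPP4 against HSC (log2 3.10, edgeR adjusted p = 0.0359). For mt-Nd6 the mutant effect was 1.34 log2 units higher in MPP4 than in HSC (SE 0.37, edgeR adjusted p = 0.608) and 0.87 higher in MPP1 than in HSC (SE 0.42, adjusted p = 1). Its values in MPP4 were 37.0, 19.1, 100.3 and 111.5 CPM in mutants, against 61.9, 58.7, 44.0 and 50.8 CPM in controls. The MPP4 mutants of batches A and B lay below all controls, and those of batch C lay above them. Light-strand genes summed to 1390 counts over 7 rows, of which mt-Nd6 held 80.1%, so the strand was measured almost through this gene alone. Per 1000 mitochondrial mRNA counts, mt-Nd6 had 1.51, 3.34 and 2.16 in HSC mutants and 5.57, 3.46 and 2.26 in HSC controls. In MPP1 it had 6.88 and 8.44 in mutants and 3.33 and 6.04 in controls, and in MPP4 it had 1.12, 1.16, 7.13 and 8.10 in mutants and 2.92, 2.18, 2.28 and 5.29 in controls. The end of mt-Nd6 overlaps that of mt-Nd5 on the other strand, and no source used here says whether counting was by strand.

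Across populations, MPP4 libraries had a lower mitochondrial share than HSC libraries of the same ID number in 5 of 6 pairs by the deposited values. The shares in MPP4 and HSC were 5.51% and 4.97% for the ID number of HSC mutant 1, 4.11% and 6.81% for HSC mutant 2, and 7.72% and 7.96% for HSC mutant 3. They were 4.04% and 5.11% for HSC control 1, 6.71% and 7.93% for HSC control 2, and 5.69% and 9.69% for HSC control 3. Every library of the ID number of HSC control 2 was at the ceiling of mt-Rnr2. The order of their mitochondrial shares and of their rRNA is therefore not known, here and in the counts of pairs below. The mean difference was -1.45 points (SD 1.65), and a two-sided exact sign-flip permutation test over the 6 pairs gave p = 0.0938, where 0.0313 is the smallest possible. With distinct UMIs 4 of 6 pairs were lower, by a mean of -0.385 points (SD 0.662, exact p = 0.25). Mitochondrial mRNA alone was lower in MPP4 in the same count of pairs, 5 of 6, by a mean of -0.454 points (SD 0.697, exact p = 0.188). Against MPP1, the MPP4 share was lower in 4 of 4 pairs, by a mean of -1.75 points (SD 0.744), with an exact p of 0.125 that is the smallest 4 pairs allow. mRNA alone was lower in 4 of 4 pairs too, by -0.714 points (SD 0.314). rRNA alone was lower in 3 of 4 (mean -1.02 points, SD 1.04), and the exception was the pair of HSC control 2's ID number, whose order is not known. With distinct UMIs 3 of 4 pairs were lower, by -0.558 points (SD 0.775). MPP1 and HSC differed by -0.285 points (SD 1.73) with 3 of 4 pairs lower in MPP1 (exact p = 0.625), and the sign turned without HSC control 3 and its ID number (0.421 points).

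**Figure D5:**
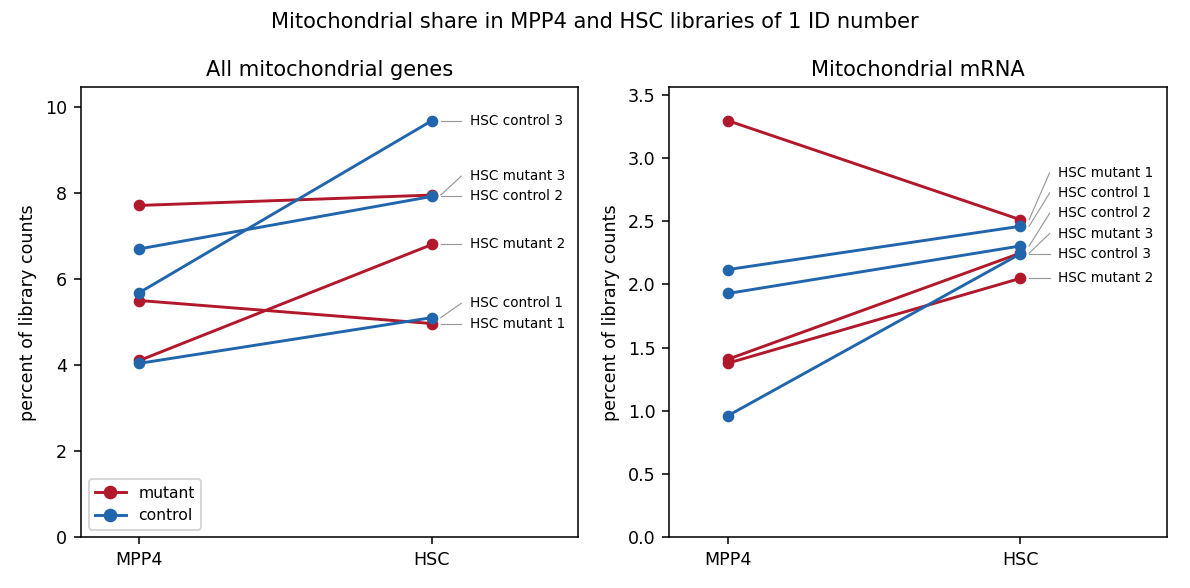
Mitochondrial share (left) and mitochondrial mRNA share (right) of MPP4 and HSC libraries, joined by ID number and coloured by genotype. In each panel 5 of 6 lines are lower in MPP4, and the exception is the ID number of HSC mutant 1 of batch A. In the left panel both values of the ID number of HSC control 2 are lower limits.

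Gene by gene in control marrow, 1 of 15 tested members fell in MPP4 relative to HSC, where 9.82% of all genes were called. This was mt-Ti, with 153, 3.09, 3.38 and 13.4 CPM in MPP4 controls, against 393, 7.97 and 8.46 CPM in HSC controls (log2 -1.23, SE 0.36, edgeR adjusted p = 0.0286). Its counts were 225, 6, 4 and 5 in MPP4 controls and 235, 8 and 3 in HSC controls, so few outside batch A. The groups overlapped, the comparison rests on differences within ID numbers, and the call was lost in 6 of 17 alternative settings, where adjusted p ran from 0.00309 to 0.963. It was lost without HSC control 1 (of batch A) or HSC control 2 and their ID numbers, and in batch C alone. The count of calls was 4 without HSC mutant 1 and its ID number (mt-Nd2, mt-Nd6, mt-Ti and mt-Tm), 3 without HSC control 3 (mt-Nd6, mt-Te and mt-Ti) and 1 without HSC control 2 (mt-Nd2). The mRNA with the smallest log2 fold change was mt-Nd6 at -0.74 (SE 0.26, edgeR adjusted p = 0.0739), with 61.9, 58.7, 44.0 and 50.8 CPM in MPP4 controls and 137, 79.7 and 50.8 CPM in HSC controls. The largest was that of mt-Co1 at -0.12 (SE 0.19), with 1921, 3892, 1438 and 722 CPM in MPP4 controls and 1726, 1763 and 1227 CPM in HSC controls. Of the 15 members 14 were below 0, with a median of -0.38 beside 0.00 over all genes. In mutant marrow none of 15 was called, against 12.7% of all genes, with 2 at an unadjusted p under 0.05 in edgeR. The 1 call by DESeq2 was mt-Co2, an mRNA with few counts that is not among the 15. Of the 15, 10 were below 0 with a median of -0.24 beside -0.05. In mutant marrow mt-Nd2 had the smallest log2 fold change among the mRNAs, -0.39 (SE 0.20), with 3827, 1821, 1876 and 1507 CPM in MPP4 mutants and 3796, 2518 and 2792 CPM in HSC mutants. mt-Nd6 had the largest, 0.60 (SE 0.26, edgeR adjusted p = 0.139). Without HSC mutant 1 and its ID number 4 members were called, mt-Cytb and mt-Nd4 lower and mt-Nd6 and mt-Tm higher in MPP4. Both contrasts share the spread of 1 fit, and their difference is the test of the mutant effect above.

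In mutant marrow 2 of 15 members were called and both rose in MPP1, where 0.0471% of all genes were called. mt-Ti had 86.4 and 80.9 CPM in MPP1 mutants, against 139, 6.56 and 5.19 CPM in HSC mutants (log2 3.10, SE 0.44, edgeR adjusted p = 0.000874). Its counts were 34 and 39 in MPP1 mutants and 168, 7 and 3 in HSC mutants. mt-Nd5 had 4473 and 4244 CPM in MPP1 mutants, against 3549, 2708 and 1858 CPM in HSC mutants (log2 1.20, SE 0.23, edgeR adjusted p = 0.0242). The MPP1 values of mt-Nd5 lay above all HSC values, and those of mt-Ti lay above the batch C HSC libraries, which share their ID numbers, and below the batch A library. The calls were lost in 2 of 17 settings for mt-Ti (adjusted p from 1.32e-11 to 0.387) and in 3 of 17 for mt-Nd5 (0.000429 to 0.896), for both without HSC mutant 2 and its ID number and when batch replaced the ID number, and for mt-Nd5 without HSC mutant 3. mt-Nd6 had a log2 fold change of 1.27 (SE 0.30, edgeR adjusted p = 0.114), and mt-Tm one of 3.81 (SE 0.83, adjusted p = 0.395). Without HSC mutant 1 and its ID number mt-Tm was called (log2 5.28, edgeR adjusted p = 7.36e-11), as was mt-Nd6 (log2 1.42, adjusted p = 0.0210), and mt-Nd6 was called without HSC control 3 as well (adjusted p = 0.0291). mt-Nd4 had the smallest log2 fold change among the mRNAs, -0.48 (SE 0.34), with 3103 and 2994 CPM in MPP1 mutants and 4555, 4774 and 6371 CPM in HSC mutants. In control marrow none of 15 members was called, against 0.236% of all genes, with 4 at an unadjusted p under 0.05 in edgeR. The 1 call by DESeq2 was mt-Co3, an mRNA with few counts that is not among the 15. mt-Ti was at 1.99 (SE 0.46, edgeR adjusted p = 0.0698; called without HSC control 1 or any of the 3 HSC mutants and their ID numbers, at adjusted p from 0.00610 to 0.0490) and mt-Tm at 2.41 (SE 0.91, adjusted p = 0.900). mt-Tm was called without HSC mutant 1 and its ID number (log2 2.39, edgeR adjusted p = 8.76e-05), in batch C alone (log2 2.71, adjusted p = 0.000153) and without libraries high in other cell types' markers (log2 2.42, adjusted p = 0.000508). Among the mRNAs mt-Nd5 was the highest at 0.56 (SE 0.24), with 4499 and 3536 CPM in MPP1 controls and 7009, 2843 and 2199 CPM in HSC controls, and mt-Nd4 the lowest at -0.24 (SE 0.35).

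The nuclear genes that copy, transcribe and process mitochondrial nucleic acids were read from a list of 57, of which 56 were rows and 50 in HSC, 38 in MPP1 and 50 in MPP4 were tested. None was called for mutant against control in any of the 3 populations by edgeR or DESeq2, with 3, 1 and 0 at an unadjusted edgeR p under 0.05 in HSC, MPP1 and MPP4. Tfam, which packages the mitochondrial genome, had log2 fold changes of 0.05 (SE 0.27) in HSC, -0.31 (SE 0.31) in MPP1 and -0.15 (SE 0.24) in MPP4. Polrmt, the mitochondrial RNA polymerase, had 0.22 (SE 0.39) in HSC and -0.09 (SE 0.35) in MPP4. Lrpprc, which stabilises mitochondrial mRNA, had 0.08 (SE 0.25) in HSC, -0.15 (SE 0.27) in MPP1 and -0.34 (SE 0.21) in MPP4. Between populations 2 of 52 fell in MPP4 relative to HSC in mutant marrow, a smaller share than the 12.7% called over all genes, and DESeq2 called 1. They were Lrpprc (log2 -0.75, SE 0.21, edgeR adjusted p = 0.0159) and Rexo2, a nuclease that degrades short RNA in mitochondria (log2 -0.95, SE 0.21, edgeR adjusted p = 0.00128). In control marrow, where 9.82% of all genes were called, 0 of 52 were called by edgeR or DESeq2, with 2 at an unadjusted edgeR p under 0.05, and with Lrpprc at -0.28 (SE 0.22) and Rexo2 at -0.27 (SE 0.21). For the mutant effect in MPP4 against HSC 0 of 52 were called by either tool, with 2 at an unadjusted edgeR p under 0.05.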

How the data were processed

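Count tables, 1 per population, were used as deposited. Their values are estimated counts as the authors deposited them: all 1557 values from 1000 up lie on the grid of a UMI collision correction with 4096 possible UMIs, and 34070 is the next value under the ceiling. Per the submitters' processing notes the build was mm10 and the tools R 3.4.0 and DESeq2. Aligner, counter and annotation are not named in any source used here. Result tables deposited by the authors hold, per the file headers, a mean signal, a log2 fold change, which runs mutant over control (Spearman 0.966 to 0.985 across genes with the fold changes here), its standard error on the log2 scale, the test score and the p-value, raw and adjusted.

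Estimated counts, already whole, were fitted with edgeR 4.0.16 in R 4.3.3 (TMM, default expression filter with a minimum count of 10, robust quasi-likelihood test, Benjamini-Hochberg threshold 0.05 over all genes tested). Genotype was fitted with batch in HSC and MPP4, and alone in MPP1, on 9147, 9392 and 8004 genes. Population contrasts and the differences of the mutant effect came from 1 fit of 18 libraries, blocked by ID number, on 10613 genes. The SE of a fold change was its size divided by the root of F. Shares were compared by exact permutation over libraries, or exact sign flips over ID numbers (scipy 1.17.1), in 6 comparisons without further adjustment. Replicate numbers in the labels were compared by the correlation of deviations from group means: 0.506, 0.231 and 0.248 in HSC, all over 0.1, so they were taken to pair there. In MPP1 the correlation was 0.146 for both numbers, also over 0.1, yet MPP1 and MPP4 match the same ID numbers otherwise. The rule therefore does not settle the pairing. Each HSC group holds libraries of batches A and C, and the part of batch in the HSC correlations was not tested. Libraries of a group differed beyond sampling noise (20 pairs, chi-square over its degrees of freedom 3.46 to 83.4). Words of 50 bases and local alignments (biopython 1.88) compared mitochondrial genes with GENCODE M21 transcripts of GRCm38, the same assembly as mm10. The scripts were tested on simulated data.

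Named were all mRNAs and rRNAs, the 5 tRNAs with most counts and any called tRNA, the tested mRNAs with the highest and lowest fold change of each comparison, and of the nuclear list called genes, Tfam, Polrmt and Lrpprc. Members, lists and tests were chosen with earlier results of these data known. Alternatives were DESeq2 1.42.0, other size factors and filters, batch and block terms, distinct UMIs in place of corrected counts, other denominators, batch C alone, and leaving out libraries; leaving out mt-Rnr2 and the 6 libraries high in other cell types' markers were chosen after seeing the data.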

Additional observations from a re-analysis of the deposited data

Results flagged for a closer look

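Values of the 2 groups of 4 libraries, MPP4 mutant and MPP4 control, were searched for a library whose gap to its nearest neighbour exceeds Dixon's 95% critical share of the group's range. Of 37 such values 9 were picked out, where chance picks about 1 in 20 of independent values. These values are not independent, since the share of a class contains its genes. All 9 came from MPP4 mutant 1, MPP4 mutant 3 and MPP4 control 1, and an excess over chance was not tested. In MPP4 mutant 3, rRNA made up 6.30% of the library, against 2.19% to 2.73% in the other MPP4 mutants, and mt-Rnr2 stood at 46800 CPM, against 17940 to 21250 CPM. This library also had 11630 CPM of B cell markers, whose part was not tested. In MPP4 mutant 1, of batch A, mRNA made up 3.30% (1.38% to 1.64% in the others), mt-Nd2 stood at 3827 CPM (1507 to 1876), mt-Cytb at 9241 CPM (2979 to 3922) and mt-Ti at 54.9 CPM (10.96 to 12.5). In MPP4 control 1, also of batch A, tRNA made up 0.0617% (0.00370% to 0.00491% in the others), mt-Tm stood at 397 CPM (7.62 to 16.5) and mt-Ti at 153 CPM (3.09 to 13.4). Batch A holds 1 library of each MPP4 group, so batch and library cannot be told apart here.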

How the results depend on the processing

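Of the alternatives for shares and counts of called members, 175 values kept their direction and call, 34 counts moved by over 1.5 times and 15 differences changed sign. For shares (points, first group minus second), the sign changed in MPP1 mutants against controls with mRNA alone (-0.548) and without mt-Rnr2 (-0.385), and in MPP4 without the satellite-like models (-0.218), as a log2 ratio to nuclear counts (-0.000879), without mt-Rnr2 (-0.0645), in batch C alone (-0.284) and without libraries high in other cell types' markers (-0.241). For MPP1 against HSC it changed with distinct UMIs (0.164) and without the marker-rich libraries (0.421). Leaving out 1 library gave -2.23 to 0.0614 in HSC, -0.742 to 2.40 in MPP1 and -0.717 to 0.588 in MPP4. Leaving out 1 ID number gave -0.992 to 0.421 for MPP1 against HSC. The sign held for MPP4 against HSC (-1.84 to -0.937) and against MPP1 (-2.07 to -1.49). The replicate block gave 0, 1 and 0 called members in HSC, MPP1 and MPP4, the same counts as without it, while over all genes it called 40, 43 and 11 against 22, 18 and 8, and it changed no call of a member. Deviations of same-numbered libraries correlated at 0.146 for both numbers of MPP1 and between -0.161 and 0.401 in MPP4, where the numbers were not taken to pair. Without a filter HSC had 1 called member (mt-Te), and leaving out 1 library gave 0 to 1 in HSC and 1 to 2 in MPP1; MPP1 had 2 without marker-rich libraries. For MPP4 against HSC in controls, batch C alone, batch in place of the ID number, DESeq2 and leaving out marker-rich libraries gave 0 called, distinct UMIs and RLE size factors 2, and leaving out 1 ID number 0 to 4; in mutants, batch C alone gave 3, DESeq2 1, leaving out marker-rich libraries 2 and leaving out 1 ID number 0 to 4. For MPP1 against HSC in controls, batch C alone gave 2, DESeq2, no filter and leaving out marker-rich libraries 1, and leaving out 1 ID number 0 to 2; in mutants, batch C alone and DESeq2 gave 4, batch in place of the ID number 0, leaving out marker-rich libraries 5 and leaving out 1 ID number 0 to 4. For the mutant effect in MPP4 against HSC, DESeq2 gave 1 and leaving out 1 ID number 0 to 1. Each single DESeq2 call in these population contrasts was mt-Co2 or mt-Co3, which had few counts. Among named genes the sign of the log2 fold change turned with distinct UMIs for mt-Nd4 in MPP1 (0.0198), mt-Nd5 in MPP4 (0.0901), and for mt-Nd1 (0.20) and mt-Cytb (0.44) in the mutant effects of MPP4 and MPP1 against HSC. It turned for mt-Nd4 in MPP1 against HSC controls without marker-rich libraries (0.29) or HSC control 3 (0.34), and for mt-Nd1 in the MPP4 effect without HSC mutant 3 (0.00688) or HSC mutant 2 (0.0327). Over all genes, calls in HSC numbered 22 and became 83 higher and 29 lower without a filter, 12 with a stricter one, 5 without batch and 11 by DESeq2. In MPP1 18 became 41 without a filter, 5 with a stricter one and 54 without marker-rich libraries, and in MPP4 8 became 88 without a filter, 3 without batch, 64 by DESeq2 and 26 without marker-rich libraries. For MPP4 against HSC, leaving out marker-rich libraries turned 1042 calls into 613 in controls and 1348 into 855 in mutants, where batch in place of the ID number gave 891. For MPP1 against HSC, DESeq2 called 49 against 25 in controls and 115 against 5 in mutants, batch in place of the ID number 3 and 0, no filter 71 and 29, and leaving out marker-rich libraries 50 and 98. Batch C alone gave 20 in those mutants. Leaving out 1 library gave 13 (HSC mutant 2) to 83 (HSC mutant 3) in HSC, 23 (MPP1 mutant 1) to 75 (MPP1 control 1) in MPP1 and 1 (MPP4 control 3) to 20 (MPP4 control 2) in MPP4. Leaving out 1 ID number gave 460 (HSC control 2) to 1158 (HSC mutant 1) for MPP4 against HSC in controls, 722 (HSC mutant 2) to 1533 (HSC control 3) in mutants, and 16 to 40 and 0 to 24 for MPP1 against HSC. For the mutant effects in MPP4 and MPP1 against HSC, DESeq2 called 108 and 57 genes against 3 and 0. The causes were not tested. Low counts limit all tRNAs, mt-Tm and mt-Ti included outside batch A and MPP1. The ceiling limits mt-Rnr2 and the total of MPP4 control 4.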
